A study of Mus musculus with 4 samples.

Results

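Ins1, Ins2 and Iapp are 3 genes of the mouse beta cell secretory product, and they were read here by symbol among 32285 genes, with all 3 found in each of the 4 libraries. Droplet single-cell RNA sequencing was run on islets of male wildtype (WT) mice and of male mice homozygous for a Pax4 knock-in allele (HH) that models the human R192H variant, with WT and HH littermates on a C57BL6/N background. WT SCD and HH SCD came from mice of 12 weeks fed a standard chow diet (SCD), and WT HFD and HH HFD from mice of 16 weeks fed a high-fat diet (HFD) for 4 weeks. Each group had 1 library from the pooled islets of several mice, which leaves every difference between groups without replicates, and no test could be made. A group cannot be told apart from its library, nor age from diet. Intervals are exact 95% intervals for counting error alone.

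Insulin is made as a precursor, preproinsulin, which enters the endoplasmic reticulum (ER), is folded with disulfide bonds and is then cut to insulin and C-peptide in the secretory granule. Mice carry a pair of insulin genes, Ins2, the counterpart of the single human gene, and Ins1, a copy that arose from an Ins2 transcript in the rodent lineage. Iapp encodes islet amyloid polypeptide (amylin), a hormone stored with insulin in beta cell granules and also known from delta cells. Because these mRNAs are so abundant, RNA from broken beta cells is taken into droplets that hold other cells, where it is counted as ambient RNA.

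In the GENCODE M21 annotation of GRCm38, Ins1 (ENSMUSG00000035804) lies on the plus strand of chromosome 19 at 52264297 to 52265476. Iapp (ENSMUSG00000041681) lies on the plus strand of chromosome 6 at 142298423 to 142303961. Ins2 (ENSMUSG00000000215) lies on the minus strand of chromosome 7 at 142678656 to 142743381, a span of 64726 bases set by 2 of its 9 annotated transcripts, which start far upstream. The Ins2 transcript used here lies at 142678659 to 142679698 and has 552 bases in 2 exons. The coding sequences had 324 bases in Ins1, 330 in Ins2 and 279 in Iapp, stop codons left out. Ins1 and Ins2 matched at 300 of 324 aligned coding positions, or 92.6%. The last 110 coding bases of both genes are shown because reads there could be assigned to either gene only at 6 positions, which are in capitals.
Ins1: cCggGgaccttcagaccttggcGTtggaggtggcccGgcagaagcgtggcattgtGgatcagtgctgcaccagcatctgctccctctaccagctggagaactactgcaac
Ins2: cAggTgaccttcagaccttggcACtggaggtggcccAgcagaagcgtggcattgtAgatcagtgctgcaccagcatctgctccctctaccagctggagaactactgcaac
The longest run shared by the transcripts had 56 bases. Of all 90-base windows of the Ins1 transcript, 0 of 973 were found in an Ins2 transcript, while 7 of 1013 windows of 50 bases were, or 0.691%. Counted from the stop codon, 529 bases followed the coding part in Ins1 but only 57 in Ins2, so that reads from the end of Ins2, where a 3′ assay samples, can run into the stretch shown above. The read length was not given in the sources used here, and how the authors' counting divided reads between both genes was not tested. Ins1 and Ins2 levels and their ratio are uncertain to that extent.

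RefSeq promoter windows (GRCm38.p6, 250 bases before the start) were matched for Ins1 and Iapp. They are shown because PDX1 and NEUROD1, whose mRNAs were measured in the same cells, are known to act on insulin promoters through A boxes and E boxes respectively. MAFA binds another element, which was not searched. Capitals mark TAAT, the core of an A box, and CATCTG, an E box, on either strand, where overlapping matches run together. The Ins1 window is chr19:52264047-52264296 and the Iapp window chr6:142298175-142298424, both on the plus strand.
Ins1 promoter: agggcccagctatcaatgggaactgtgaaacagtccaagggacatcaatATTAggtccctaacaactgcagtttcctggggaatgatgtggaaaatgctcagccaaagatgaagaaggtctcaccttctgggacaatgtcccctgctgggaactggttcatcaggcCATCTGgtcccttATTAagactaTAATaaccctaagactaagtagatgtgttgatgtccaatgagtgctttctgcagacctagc
Iapp promoter: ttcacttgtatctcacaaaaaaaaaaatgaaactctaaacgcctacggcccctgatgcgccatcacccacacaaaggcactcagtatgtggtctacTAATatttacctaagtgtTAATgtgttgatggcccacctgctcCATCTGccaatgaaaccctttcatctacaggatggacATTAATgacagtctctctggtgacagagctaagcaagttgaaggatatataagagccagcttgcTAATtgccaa
The Ins1 window held 3 TAAT and 1 CATCTG, and the Iapp window 5 TAAT and 1 CATCTG. Among 32851 promoter windows of that length, 54.9% held a TAAT, 14.4% a CATCTG and 8.91% both. The matches are descriptions of the letters, not of bound sites.

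The libraries held 68011082 to 104810105 UMIs (unique molecular identifiers, each counting 1 captured transcript molecule) in 4665 to 7123 barcodes. After filters and removal of predicted doublets, 3092 cells of WT SCD, 3082 of HH SCD, 1999 of WT HFD and 4231 of HH HFD remained. The 3 genes were kept out of the clustering, of the scaling before it and of the naming of cells. They were counted in the total UMIs and mitochondrial percentages of the filters and in the doublet scores. Their levels could therefore still affect which cells were kept. Beta-like clusters, with all 8 beta markers detected in each library (among them Mafa, Pdx1, Slc2a2 and Ucn3), held 2025, 1989, 1143 and 2828 cells in the order above. Most SCD and HFD cells lay in different beta-like clusters, 0 to 3 for SCD and 4, 5, 13 and 14 for HFD, while the small clusters 7 and 20 (117 and 105 cells) held both diets, and 97.7% of cluster 14 came from HH HFD. Such a cluster may be that library rather than a cell state. Pax4, the gene that carries the allele, had 0 UMIs in every library, so it gave no check of the genotype labels. Among the kept cells 9 to 21 per library had a barcode found in another library, and leaving them out kept each log2 difference of the 3 genes in beta-like cells within its counting interval.

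More than 50% of the UMIs of beta-like cells came from the 3 genes, at 58.1% of the summed UMIs in WT SCD against 59.6% in HH SCD, with 59.3% in WT HFD against 60.9% in HH HFD. Ins2 was the highest of the 3 in each library. Its share of the summed UMIs was 38.4% in WT SCD and 38.9% in HH SCD, then 40.3% in WT HFD and 40.1% in HH HFD. Both HFD libraries stood above both SCD libraries, by less than 2 percentage points. For Ins1 the shares were 15.9%, 16.8%, 14.8% and 14.8% in the same order, so that both HFD libraries were below both SCD libraries. The Iapp share was 3.75% in WT SCD against 3.89% in HH SCD, with 4.15% in WT HFD against 6.02% in HH HFD, where HH HFD stood apart from the other three. At these depths the counting intervals were narrow, for example 6.01% to 6.02% for Iapp in HH HFD. In this 3′ assay a transcript is counted once whatever its length, so UMI shares of the 3 genes were compared without a length correction.

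Single cells showed the same order of the 3 genes with a wide spread. In WT SCD, the median beta-like cell held 4077 Ins1, 10104 Ins2 and 927 Iapp UMIs of 26371 UMIs in all. In HH HFD the medians were 3567 Ins1, 9603 Ins2 and 1311 Iapp UMIs of 24214.5. Thus the median Iapp count was higher in the HH HFD cells although their median depth was lower. Ins2 varied least between cells, with a 90th percentile of its share that was 1.21 to 1.29 times the 10th percentile. The same quotient was 1.51 to 1.61 for Ins1, while for Iapp it was 2.06 in WT SCD and 2.07 in HH SCD, then 2.24 in WT HFD and 2.55 in HH HFD. Iapp was therefore the most variable of the 3 from cell to cell in each library.

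**Figure D1:**
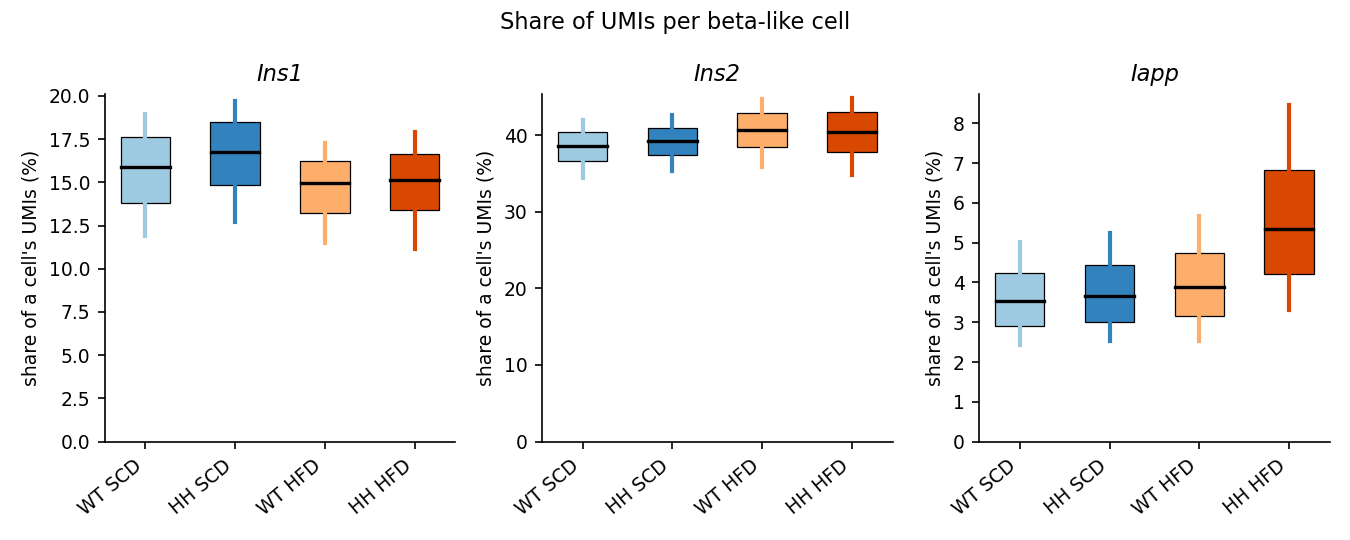
Share of a cell's UMIs (%) from Ins1, Ins2 and Iapp in beta-like cells of each library; boxes run from the 25th to the 75th percentile of cells, thick lines inside mark the median and vertical lines run from the 10th to the 90th percentile. The Iapp median was 5.35% in HH HFD and 3.52% to 3.87% in the other libraries. Boxes of each gene overlapped between all libraries. For Iapp the overlap was narrow between WT SCD, with a box up to 4.24%, and HH HFD, with a box from 4.22%.

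HH was first compared with WT on standard chow, the comparison at 12 weeks without the dietary challenge. Ins1 had a log2(HH/WT) of summed CPM (counts per 1000000 UMIs) of 0.075 (interval 0.074 to 0.077), Ins2 of 0.019 (0.018 to 0.020) and Iapp of 0.053 (0.050 to 0.056). None of the 3 reached a log2 difference of 0.32 in size, the fold used here to call a gene higher or lower. Of 1405 genes that averaged at least 50 CPM in both libraries, 0.569% were higher and 1.21% lower by that fold. By cells, 18.4% of HH SCD cells lay above the WT SCD 90th percentile of the Ins1 share, against 15.0% for Ins2 and 12.9% for Iapp. In the 4 main SCD clusters, log2(HH/WT) lay between 0.033 and 0.090 for Ins1, between 0.0016 and 0.044 for Ins2 and between 0.024 and 0.084 for Iapp. Each member was thus slightly higher in HH in each of these clusters, by less than the fold, and the 1 exception was Iapp in cluster 5, with -0.13 between 27 and 28 SCD cells.

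On the high-fat diet, Iapp was the 1 member that differed between genotypes by more than the fold. Its level was 41533 CPM in WT HFD and 60153 CPM in HH HFD, a log2(HH/WT) of 0.53 (interval 0.53 to 0.54). Ins1 had 147802 CPM in WT HFD and 148117 in HH HFD, a log2 ratio of 0.0031 (0.0015 to 0.0046). Ins2 had 403395 CPM in WT HFD and 400572 in HH HFD, a log2 ratio of -0.010 (-0.011 to -0.0092). Among 1305 genes measured in these cells, 8.20% were higher in HH HFD and 9.81% lower by the fold or more. Of the 3 members 1 was therefore past a fold that 107 genes passed upwards and 128 downwards.

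Cell by cell, the Iapp shares of both HFD libraries overlapped, with HH HFD shifted upwards. Of the 2828 HH HFD beta-like cells, 81.2% (interval 79.7% to 82.6%) lay above the WT HFD median of the Iapp share, and 43.9% (42.0% to 45.7%) lay above the WT HFD 90th percentile of 5.66%. Below the WT HFD 10th percentile of 2.53% lay 2.40% of them. For Ins1 and Ins2, 53.9% and 47.5% of the HH HFD cells lay above the WT HFD median. The median share of Iapp in a cell was 3.87% in WT HFD and 5.35% in HH HFD.

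Iapp differed by less within clusters than over all beta-like cells. In cluster 4, Iapp was 4.14% of UMIs in WT HFD and 4.86% in HH HFD, a log2 ratio of 0.23. The ratio was 0.14 in cluster 5, 0.25 in cluster 13 and 0.18 in cluster 20, so each shared HFD cluster was higher in HH, and none of the 4 reached the fold. Cluster 14 held 1256 of the HH HFD beta-like cells (44.4%). Against clusters of other cell types it was led by G6pc2, Dapl1 and Prlr. Of these, G6pc2 and Prlr were also leading genes of other beta-like clusters, and Dapl1 of cluster 7. Cluster 14 had 6.98% Iapp, the highest level of any beta-like cluster and library with 20 cells or more. Without this cluster, an alternative chosen after the data were seen, log2(HH/WT) of Iapp fell to 0.28, under the fold. In the same 4 clusters Ins1 ratios were 0.041 to 0.099 and Ins2 ratios -0.0017 to 0.094. HH HFD cells were shallower than WT HFD cells in each of them. Median UMIs were 23061 against 33831 in cluster 4 and 17441 against 26245.5 in cluster 5. They were 20714 against 28275 in cluster 13 and 20205 against 30167 in cluster 20. Cluster 14 had 28293.5. Iapp shares were larger in deeper cells, as given below, and the part of depth in the cluster ratios was not tested.

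**Figure D2:**
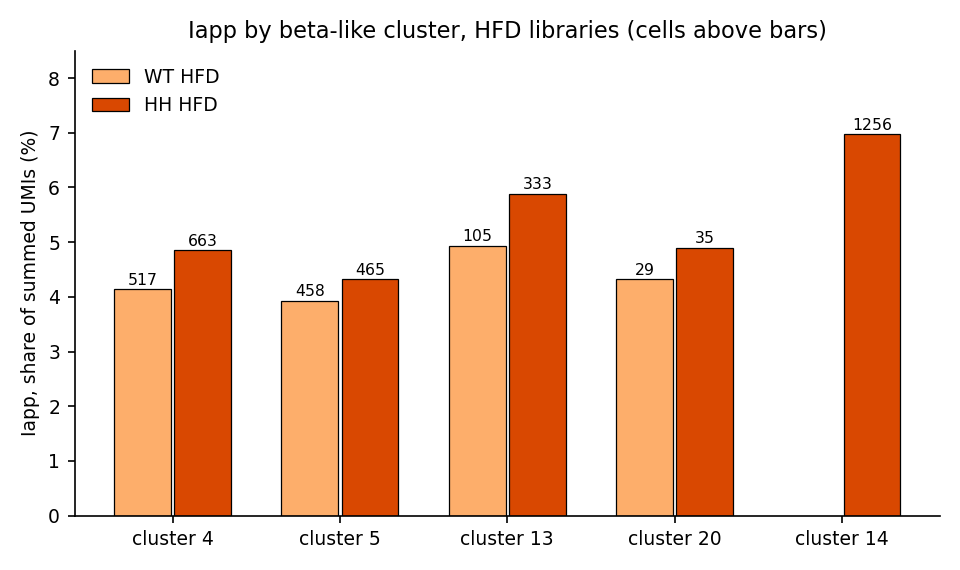
Share of summed UMIs from Iapp (%) in beta-like clusters of the WT HFD and HH HFD libraries, with the number of cells above each bar; clusters were made without the 3 genes, and groups under 20 cells are not drawn. Iapp was higher in HH HFD in clusters 4, 5, 13 and 20, and highest in cluster 14, where only HH HFD had enough cells.

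Several marker lists differed between the HFD libraries in the same cells. Summed over 6 alpha markers, of which all 6 were detected in beta-like cells of each library, the level was 1621 CPM in WT HFD and 3218 CPM in HH HFD, against 1724 in WT SCD and 2033 in HH SCD. The 4 delta markers summed to 92.2 CPM in WT SCD against 128 in HH SCD, with 81.4 in WT HFD against 146 in HH HFD, and delta-like cells themselves held 182958 to 185768 CPM of that list. The 5 PP markers summed to 626, 1080, 707 and 1187 CPM in the same order, with Aqp3 at 0 in HH SCD. The 8 beta markers summed to 2497 CPM in WT HFD and 1740 in HH HFD. Between these libraries 4 B cell markers had 9.07 and 36.9 CPM and 4 red blood cell markers 2.50 and 11.0, while macrophage markers had 47.3 and 39.0 and ductal markers 232 and 222. The part of these markers in the Iapp result was not tested.

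High-fat diet was then set against standard chow within each genotype, with age moving along. Iapp was higher in HFD, by a log2 of 0.15 (interval 0.14 to 0.15) in WT and of 0.63 in HH, which passed the fold. Ins2 was higher by 0.071 in WT and 0.042 in HH, whereas Ins1 was lower, at -0.11 in WT and -0.18 in HH. The genes past the fold were 4.71% higher and 12.8% lower of 1402 in WT, and 11.6% higher and 15.4% lower of 1308 in HH. Summed over all beta-like cells, both genotypes thus had less Ins1 and more Ins2 in HFD, neither past the fold. In cells under 20000 UMIs, Ins1 was instead higher in HFD in HH, with 13.4% in HH SCD and 14.3% in HH HFD (347 and 819 cells). Apart from these ranges of cell depth, no other setting was run for the diet comparisons.

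Over all beta-like cells, the ratio of Ins1 to Ins2 differed more between diets than between genotypes, which did not hold in cells under 20000 UMIs. Beta-like cells held 0.415 Ins1 UMIs per Ins2 UMI in WT SCD and 0.432 in HH SCD, next to 0.366 in WT HFD and 0.370 in HH HFD. The log2(HH/WT) of the ratio was 0.056 (interval 0.055 to 0.058) in SCD and 0.013 (0.011 to 0.015) in HFD. The log2(HFD/SCD) was -0.18 in WT and -0.22 in HH, larger in size than both genotype differences. Both HFD libraries lay below both SCD libraries. With the looser filter on cells the HFD genotype difference turned to -0.0027, and in cells of 20000 to 30000 UMIs it was 0.11.

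Among single cells, the Ins1 share of insulin UMIs spread more widely than counting error alone. Its SD over beta-like cells was 4.31 percentage points in WT SCD and 4.29 in HH SCD, then 4.15 in WT HFD and 4.84 in HH HFD. Binomial sampling at each cell's own insulin count would give 0.48 to 0.61 points, so the observed SD was 7.02 to 10.1 times as large. The 10th and 90th percentiles were 24.2% and 32.9% in WT SCD and 21.9% and 31.2% in HH HFD. Counting error is only one of the sources of such a spread. Cell depth moved with it, as given next, and the part of depth, of RNA from other cells and of read assignment was not tested.

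The ratio was higher in deeper cells, step by step in 3 libraries and less evenly in HH HFD. Cells under 20000 UMIs had 0.357 Ins1 per Ins2 in WT SCD against 0.360 in HH SCD, with 0.327 in WT HFD against 0.359 in HH HFD. In this shallow range HH HFD lay between both SCD libraries and was nearly level with HH SCD. Cells of 20000 to 30000 UMIs had 0.394, 0.415, 0.348 and 0.375 in the same order, and cells over 30000 UMIs 0.455, 0.472, 0.380 and 0.369. Spearman's rho between the Ins1 share of insulin UMIs and total UMIs, given as a description over cells that share a library and its depth, was 0.55 in WT SCD (2025 cells), 0.56 in HH SCD (1989) and 0.38 in WT HFD (1143), but 0.053 in HH HFD (2828). Iapp, in contrast, had a larger share in deeper cells of every library. It went from 3.27% under 20000 UMIs to 4.05% over 30000 UMIs in WT SCD, from 3.48% to 4.35% in HH SCD and from 3.25% to 4.48% in WT HFD. In HH HFD it went from 4.46% to 7.12%, and HH HFD was above the other libraries in each depth range.

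**Figure D3:**
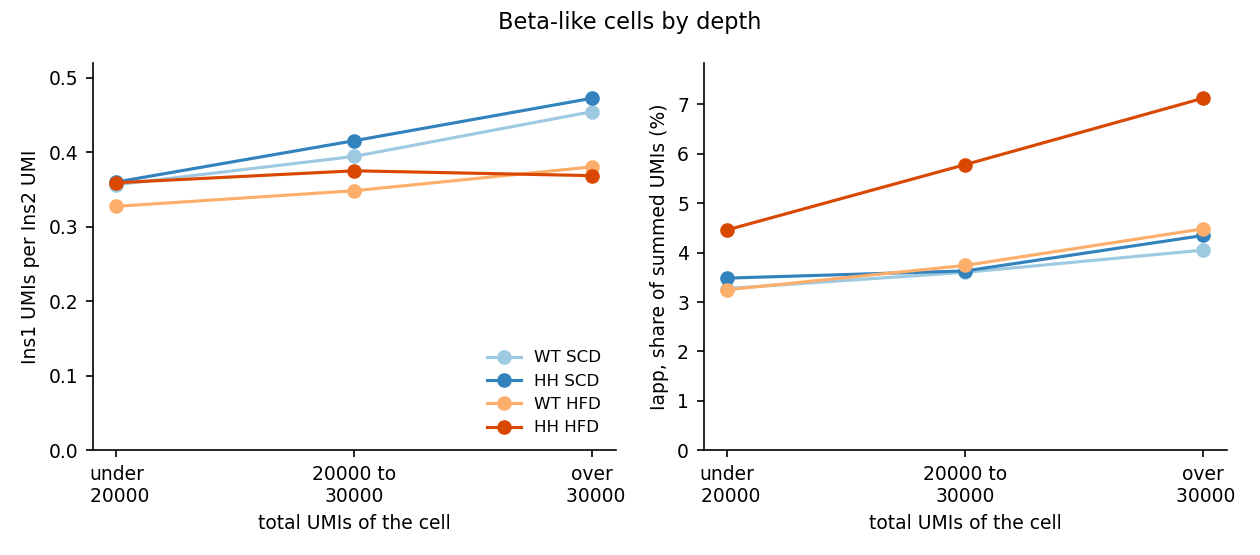
Ins1 UMIs per Ins2 UMI (left) and share of summed UMIs from Iapp in % (right) in beta-like cells of each library, grouped by the total UMIs of the cell (146 to 1301 cells per point). The ratio rose with depth in WT SCD, HH SCD and WT HFD and was 0.359, 0.375 and 0.369 in HH HFD, while Iapp rose in all libraries and was highest in HH HFD.

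Clusters differed in the ratio too. Cluster 13, in both HFD libraries, had the lowest ratio of the beta-like clusters, with 0.323 in WT HFD and 0.316 in HH HFD, next to 0.390 and 0.400 in cluster 4. Cluster 3 had the highest ratio in both SCD libraries, with 0.456 in WT SCD and 0.466 in HH SCD. Cluster 7, led by the cell cycle genes Cenpf, Ube2c and Mki67, had only 32.6% Ins2 in HH SCD and 35.4% in HH HFD, with 25 and 71 cells, the lowest Ins2 levels of these clusters.

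Across cells, Iapp shares had a weak or negative relation to those of the insulin genes. Spearman's rho between the shares of Ins1 and Ins2 was 0.35 in WT SCD and 0.23 in HH SCD, then 0.19 in WT HFD and 0.16 in HH HFD. Between Ins2 and Iapp it was -0.11, -0.16, -0.23 and -0.22 in that order, and between Ins1 and Iapp 0.041, 0.068, -0.060 and -0.28. Shares within a cell sum to a whole and are not independent, and the cells of a library share its depth.

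Outside beta-like cells, the insulin genes were found in every class, at counts per cell that varied less between classes than depth did. Every kept alpha-, delta-, PP-, endothelial-, stromal- and macrophage-like cell held at least 1 UMI of Ins1 and of Ins2. The median Ins2 count per cell in these 6 classes lay between 78.5 and 105 UMIs in WT SCD, 45 and 85 in HH SCD, between 80.0 and 113 in WT HFD and between 54 and 109 in HH HFD. The median Ins1 count lay between 26 and 34, 15 and 27, 23 and 34 and 16 and 34.5 UMIs in the same order. Within a library the highest class median was thus 1.34 to 2.02 times the lowest for Ins2 and 1.31 to 2.16 times for Ins1, while the classes' median depth differed 2.49- to 3.78-fold.

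As shares, shallow classes therefore often looked richer in insulin, with exceptions in both HH libraries. In HH HFD the median Ins2 share was 1.15% in macrophage-like cells (11725 UMIs) and 0.896% in endothelial-like cells (6362 UMIs). In HH SCD it was 0.778% (10356 UMIs) and 0.709% (5812 UMIs) in the same classes. Ins2 made up 1.33% of the UMIs of the median endothelial-like cell in WT SCD (6126 UMIs) and 0.549% of the median PP-like cell (18459.5 UMIs), at 80.0 and 105 Ins2 UMIs. After thinning every cell to 3000 UMIs, the median endothelial-like cell held 40.5 Ins2 UMIs in WT SCD against 21 in HH SCD, with 34 in WT HFD against 28 in HH HFD. In beta-like cells of WT SCD the same thinning left 1155. Endothelial cells line blood vessels and are not known to express these genes, and their UMIs are given here as the background level. The source of these UMIs was not tested.

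**Figure D4:**
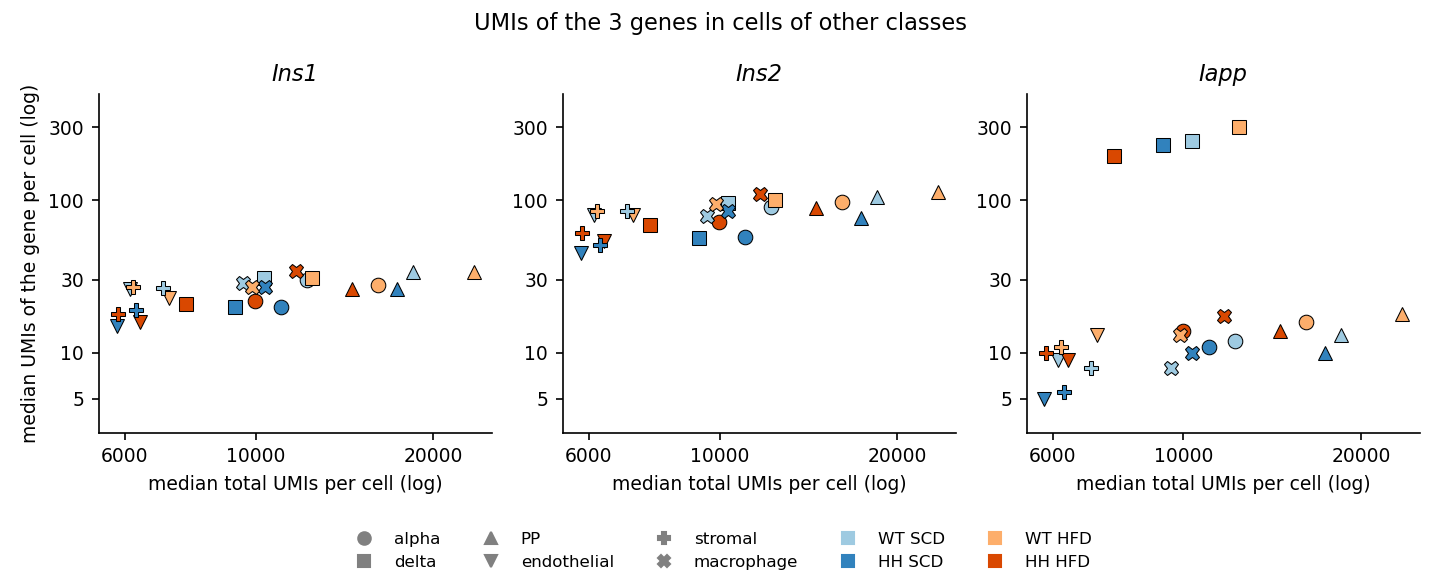
Median UMIs per cell of Ins1, Ins2 and Iapp against the median total UMIs per cell, both on log axes, for 6 classes (symbols) in the 4 libraries (colours). Ins1 and Ins2 stayed between 15 and 113 UMIs at all depths, and Iapp stayed at 5 to 18 UMIs except in delta-like cells, which held 194 to 303.5.

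With cells rich in the 3 genes left aside, insulin RNA in these classes had a lower Ins1 to Ins2 ratio than in beta-like cells. In cells with 10% or less of their UMIs from the 3 genes, a bound set after the data were seen, the ratio lay between 0.324 and 0.337 over the 6 classes in WT SCD and between 0.324 and 0.356 in HH SCD. It lay between 0.270 and 0.311 in WT HFD and between 0.284 and 0.314 in HH HFD. These sets held 14 to 498 cells. All 6 classes were below the beta-like ratio of their own library, which was 0.415, 0.432, 0.366 and 0.370. HFD lay below SCD here as well, as in beta-like cells. Barcodes left out for fewer than 1000 UMIs had ratios of 0.364 in WT SCD and 0.371 in HH SCD, then 0.343 in WT HFD and 0.349 in HH HFD, between both sets. Barcodes left out for 10% or more mitochondrial UMIs, a sign of damaged cells, had 0.334, 0.331, 0.319 and 0.341 at 3000 UMIs or more. Without the bound of 10%, macrophage-like cells of HH HFD had 0.396, above the beta-like ratio, while every other class sum of the 6 classes stayed below it. Beta-like cells under 20000 UMIs were nearer to the other classes, at 0.357, 0.360, 0.327 and 0.359.

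**Figure D5:**
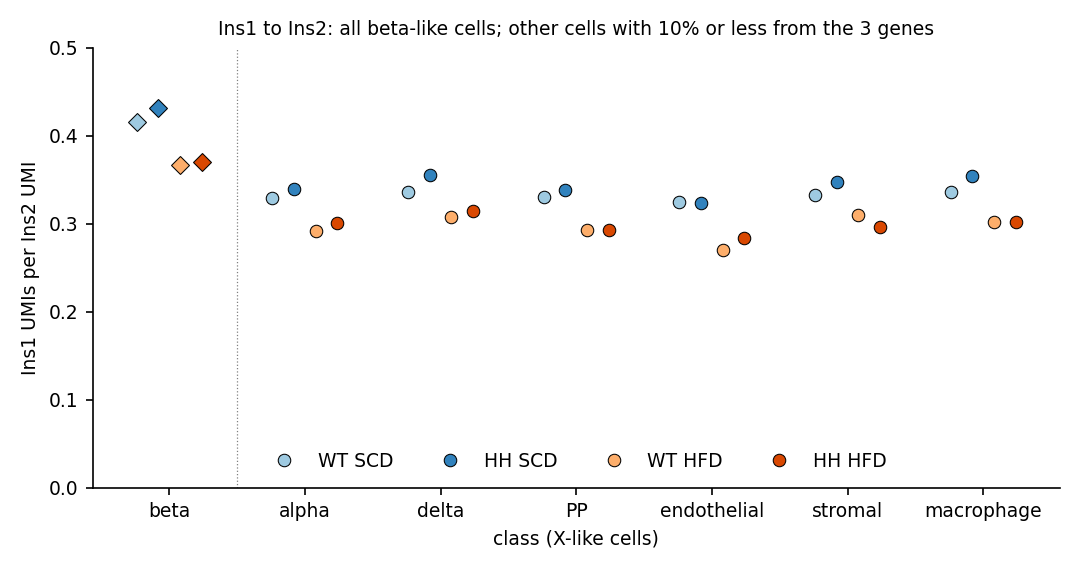
Ins1 UMIs per Ins2 UMI in all beta-like cells (diamonds) and in cells of 6 other classes with 10% or less of their UMIs from Ins1, Ins2 and Iapp (circles), by library. Circles lie between 0.270 and 0.356 and below the diamond of their own library, and HFD libraries lie below SCD libraries.

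Those barcodes under 1000 UMIs also held a large share of the 3 genes. It was 23.6% in WT SCD (161 barcodes) and 19.3% in HH SCD (109), then 24.6% in WT HFD (479) and 14.1% in HH HFD (420). Barcodes of at least 1000 but under 3000 UMIs had 9.42%, 7.99%, 9.48% and 7.03% in the same order. Both were above the median of each library's endothelial-like cells.

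Delta-like cells, which make somatostatin, were the exception for Iapp. The median delta-like cell held 246 Iapp UMIs in WT SCD against 230 in HH SCD, with 303.5 in WT HFD against 194 in HH HFD. That was 2.38%, 2.50%, 2.48% and 2.56% of its UMIs, a nearly even level over the libraries. Alpha-like cells held a median of 11 to 16 Iapp UMIs and PP-like cells 10 to 18. Iapp per Ins2 UMI, in cells with 10% or less from the 3 genes, was 2.20, 3.02, 3.12 and 2.87 in delta-like cells, against 0.101 to 0.260 in the other 5 classes of all libraries and 0.0976 to 0.150 in beta-like cells. The summed Iapp level of delta-like cells was 68.3%, 68.8%, 63.8% and 47.7% of the beta-like level of the same library. The 8 beta markers stood at only 6.46%, 5.44%, 6.62% and 12.3% of theirs, and Ins2 at 3.69%, 3.08%, 2.11% and 4.83%.

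Iapp of delta-like cells was set side by side between genotypes. Log2(HH/WT) of the summed level was 0.065 (interval 0.051 to 0.078) in SCD and 0.11 (0.098 to 0.13) in HFD, and that of the medians 0.071 and 0.043. The HFD value in beta-like cells was 0.53, and the difference between both classes was not tested. In HH HFD, 8 of 297 delta-like cells had more than 10% of their UMIs from the 3 genes, and 5 in 100 cells with the most UMIs of the 3 genes (15 cells) held 32.8% of them.

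Sums and medians of scarce classes lay far apart in some libraries. In endothelial-like cells the 3 genes gave 3.48% of the summed UMIs in WT SCD (interval 3.44% to 3.52%, 128 cells) and 1.33% in HH SCD (1.31% to 1.36%, 89 cells), then 1.63% in WT HFD (1.61% to 1.66%, 146 cells) and 9.89% in HH HFD (9.84% to 9.93%, 209 cells). The median endothelial-like cell had 1.89%, 1.08%, 1.65% and 1.36%, so HH HFD was highest by its sum and not by its median. In HH HFD, 10 cells held 70.4% of the UMIs of the 3 genes, and 15 cells had more than 10% of their UMIs from them. Left aside, the remaining 194 cells had 1.38%. In WT SCD 8 cells were above 10%, the top 6 cells held 38.3%, and the sum without the 8 cells was 2.15%. In HH SCD 1 cell was above 10%, and the sum without it was 1.23%. In WT HFD 0 of 146 cells were above 10%, and the top 7 cells held 14.8%. In macrophage-like cells of HH HFD, 25 of 54 cells were above 10%, the sum was 39.4% and the median 1.72%.

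Beta markers moved with these sums. The 8 beta markers summed to 155 CPM in endothelial-like cells of WT SCD, 42.6 in HH SCD, but 91.9 in WT HFD and 298 in HH HFD, with all 8 detected in each. As a percentage of the beta-like level, the markers stood at 6.64% in WT SCD and 1.99% in HH SCD, then 3.68% in WT HFD and 17.2% in HH HFD. Ins2 stood at 6.32%, 2.42%, 2.86% and 16.3% in the same order. Markers of other types differed too in these endothelial-like cells. The 6 alpha markers summed to 7809, 861, 833 and 5723 CPM, and 4 red blood cell markers to 140, 1.70, 6.75 and 1112 CPM. The 5 PP markers had another order, with 451, 6601, 462 and 884 CPM. Kept doublets raised the sums of the 3 genes further, to 4.94% to 19.7%. Other settings lowered the HH HFD sum, to 4.81% with the looser filter, 4.58% with equal weight per cell and 1.37% with the 3 genes in the clustering. In the other libraries these settings raised some sums and lowered others, as given at the end.

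Genes that make, fold, cut and store insulin were examined in the same beta-like sums, in lists of 37 genes in all. Of 10 promoter factors 7 were measured at 50 CPM or more. In SCD 0 of the 7 passed the fold, where only 0.569% of all genes were higher and 1.21% lower, and in HFD 3 were lower in HH, beside 9.81% of all genes. Mafa, an activator of insulin genes in mature beta cells, had 311 CPM in WT HFD and 195 in HH HFD, a log2 ratio of -0.67. Nkx6-1, a beta cell identity factor, had -0.43 (252 and 188 CPM) and Neurod1, which binds E boxes, -0.33 (144 and 115 CPM). The list had a median of -0.31 beside -0.037 over all 1305 genes, while Ins1 and Ins2 differed by under 0.02 on the log2 scale.

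Of 14 genes for entry into the ER and folding, 13 were measured, and in HFD 7 were higher and 0 lower in HH, with a median of 0.32. Sdf2l1, an ER chaperone partner, had 250 CPM in WT HFD and 414 in HH HFD, a log2 ratio of 0.73. Spcs1, a subunit of the signal peptidase, and Dnajc3, a co-chaperone, both had 0.55. The translocon subunit Sec61b had 0.46, and the disulfide isomerases Pdia6, P4hb and Pdia4 had 0.41, 0.38 and 0.32. Hspa5, the main ER chaperone, had 0.087 between genotypes but was lower in HFD than in SCD, by a log2 of -0.81 in WT and -0.80 in HH.

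Of 6 processing genes, 2 were higher in HH HFD and 0 lower. They were Pam, which amidates peptide hormones such as amylin (176 and 259 CPM, 0.55), and Scg5, a chaperone of the convertase PC2 (599 and 750 CPM, 0.32). Pcsk1 and Pcsk2, the convertases that cut proinsulin and proamylin, had log2 ratios of 0.12 and -0.012. Of 7 granule genes 6 were measured, and 3 were higher and 1 lower in HH HFD. The granins Scg2 (3019 and 4158 CPM) and Chgb (683 and 920 CPM) had 0.46 and 0.43, and Ptprn had 0.39. Slc30a8, the zinc transporter of the insulin granule, had -0.49 (474 and 337 CPM). In SCD, 0 of the 13 folding, 0 of the 6 processing and 0 of the 6 granule genes passed the fold, beside the small SCD shares over all genes given above. These lists are described by counts and medians, beside 8.20% higher and 9.81% lower over all genes in HFD, with no test.

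The same lists were then set between diets. In WT, where 4.71% of all genes were higher and 12.8% lower in HFD, Pdx1 (0.33), Pax6 (0.35), Pcsk1n (0.33) and Scg2 (0.51) were higher in HFD and Mafa (-0.34) and Hspa5 (-0.81) lower. In HH, where 11.6% of all genes were higher and 15.4% lower, 6 folding genes, 2 processing genes (Scg5 and Pam) and 3 granule genes (Chgb, Scg2 and Scg3) were higher in HFD, and Mafa (-0.87) and Hspa5 (-0.80) lower.

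Finally, the genes whose levels were most like those of each member were looked up over 36 sums of class and library, among 9747 genes. Ins1 and Ins2 were most like each other, with Pearson's r of 0.998 on a log scale. Next came Trpm5 (0.904) and Car10 (0.90) for Ins1, and Fam151a (0.906) and Car10 (0.90) for Ins2. For Iapp they were Glp1r, the receptor of glucagon-like peptide 1 (0.860), Sdk2 (0.853) and Ppp1r1a (0.836). Iapp had r of 0.764 with Ins1 and 0.754 with Ins2. The points share libraries, so the values are descriptions and carry no p.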

How the data were processed

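Islets of 4 groups were measured with 1 droplet 3′ library each. According to the labels and the methods, the authors pooled islets, aligned reads to mm10 with Cell Ranger (6.0 in the labels, 6.0.2 in the file headers) and deposited Cell Ranger's filtered UMI counts, whole numbers without ambient or doublet correction. Read length and annotation release were not given in the sources used here. The 3 members and the lists were chosen with earlier results of these data known.

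Cells needed under 10% mitochondrial UMIs, 3000 to 50000 UMIs and 2000 to 5000 genes, which kept 38.3% to 67.8% of the barcodes of a library. The study's text joins these conditions with "or". Scrublet's own threshold marked almost no cells, so, after the data were seen, the highest scores up to 0.8% per 1000 cells were removed, 348 cells in all. Clusters used 3000 variable genes without Ins1, Ins2 and Iapp, 30 principal components, 20 neighbours and Leiden resolution 1, with no integration (scanpy 1.11.5, igraph 0.11.9, Python 3.11.15, seed 1). Of 23 clusters, 22 were named X-like from at least 3 markers and 1 of 104 cells, led by Igkc and Ighm, stayed unnamed. Leading genes were taken against clusters of other types, which was also decided after the data were seen. Rebuilt names can themselves cause differences from the study.

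UMIs were summed per class and library and scaled to CPM, with a floor of 3 counts. Genes averaging at least 50 CPM and past a log2 difference of 0.32 were called. Of the lists, genes past the fold were named, and for each member the 3 genes with the highest Pearson r of log2(CPM + 1); Hspa5, Pcsk1 and Pcsk2 were added after their values were seen. The symbols Ero1b and Ero1a were matched to older names. Intervals were Clopper-Pearson for shares and exact conditional for ratios of counts. With 1 library per group no test was made. The ratio of summed counts, its interval and the fold call were checked on simulated counts with counting error alone, without spread between cells or libraries. Filters, doublet removal, clusters and names were not checked in this way. Alternatives were a looser filter on cells (under 20% mitochondrial UMIs and at least 1000 UMIs), doublets kept, the 3 genes in the clustering, equal weight per cell, CPM without the 3 genes and mitochondrial genes, subtraction of the endothelial-like mean, cells of 20000 to 30000 UMIs and shared barcodes left out. Added after the data were seen were subtraction of the endothelial-like median and leaving out cluster 14.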

Additional observations from a re-analysis of the deposited data

Results flagged for a closer look

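Ins2 had opposite signs between genotypes in SCD and HFD as summed, and the sign in HFD depended on the setting. In beta-like cells log2(HH/WT) of Ins2 was 0.019 in SCD and -0.010 in HFD. In HFD it was 0.015 with the looser filter on cells and 0.018 with CPM without the 3 genes and mitochondrial genes. Within the 4 shared HFD clusters it was 0.0030, 0.011, 0.094 and -0.0017. Neither passed a log2 of 0.32 in size, and no test of one diet against the other was made.

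The share of UMIs from Ins1, Ins2 and Iapp in endothelial-like cells had opposite signs in the sums but not in the medians per cell. Its log2(HH/WT) was -1.38 in SCD and 2.60 in HFD, with 1 library in each group, and the difference was not tested. The shares were 3.48% in WT SCD against 1.33% in HH SCD, with 1.63% in WT HFD against 9.89% in HH HFD, and in HH HFD 10 of 209 cells held 70.4% of these UMIs. Without the cells above 10%, the shares were 2.15%, 1.23%, 1.63% and 1.38% in that order. The size in SCD thus rested in part on few cells. In HFD the sign itself rested on them, as HH was below WT without them. The medians per cell were lower in HH in both diets, with 1.89% in WT SCD against 1.08% in HH SCD, and 1.65% in WT HFD against 1.36% in HH HFD. In HFD the sums were 4.87% in WT and 4.81% in HH with the looser filter, and 1.63% and 1.37% with the 3 genes in the clustering. With doublets kept the SCD sums turned, to 8.52% in WT and 13.4% in HH.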

How the results depend on the processing

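With 1 library per group no setting has a replicate check, no library could be left out and depth limits only the counting error. No paired analysis was possible because each group had 1 library, all numbered 1, and so the groups share fewer than 2 numbers. Iapp in HFD kept its direction in all 10 alternatives and passed a log2 of 0.32 in 9. Without cluster 14, log2(HH/WT) of Iapp in HFD was 0.28, of Ins1 0.021, of Ins2 -0.0029 and of the Ins1 to Ins2 ratio 0.024. Ins1, Ins2 and the ratio stayed under the fold in all alternatives, and their sign in HFD depended on the setting. In SCD every sign held in every alternative.

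In the order Ins1, Ins2, Iapp and ratio, the looser filter on cells gave 0.088, 0.027, 0.073 and 0.061 in SCD and 0.012, 0.015, 0.52 and -0.0027 in HFD. Cells of 20000 to 30000 UMIs gave 0.11, 0.036, 0.011 and 0.075 in SCD and 0.090, -0.016, 0.63 and 0.11 in HFD. Subtraction of the endothelial-like mean gave 0.079, 0.026, 0.065 and 0.053 in SCD and -0.021, -0.035, 0.51 and 0.014 in HFD, and of the median 0.076, 0.021, 0.057 and 0.055 in SCD and 0.0033, -0.0094, 0.54 and 0.013 in HFD. Equal weight per cell gave 0.074, 0.020, 0.051 and 0.054 in SCD and 0.028, -0.0031, 0.50 and 0.034 in HFD. Kept doublets gave 0.073, 0.018, 0.055 and 0.055 in SCD and -0.0030, -0.015, 0.53 and 0.011 in HFD, and clustering with the 3 genes gave 0.077, 0.021, 0.053 and 0.056 in SCD and -0.0014, -0.015, 0.53 and 0.013 in HFD. CPM without the 3 genes and mitochondrial genes gave 0.13, 0.071 and 0.10 for the 3 genes in SCD and 0.031, 0.018 and 0.56 in HFD.

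The endothelial-like share, in the order WT SCD, HH SCD, WT HFD and HH HFD, was 4.13%, 3.02%, 4.87% and 4.81% with the looser filter, 8.52%, 13.4%, 4.94% and 19.7% with doublets kept, 2.86%, 1.33%, 1.63% and 1.37% with the 3 genes in the clustering, and 3.18%, 1.43%, 1.80% and 4.58% with equal weight per cell. With shared barcodes left out HH HFD had 9.39%. The high value of HH HFD thus depended on the setting, and the cause was not tested.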
